A study of Macaca mulatta with 4 samples.

Results

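GABA-A receptors are chloride channels that open when GABA binds, and each is built from 5 subunits drawn from a family of genes. The subunits described here are GABRA2, GABRA3, GABRA4, GABRA6, GABRB1, GABRB2 and GABRD, chosen by their symbols among the 30807 genes counted. A row was found for 6 of the 7 symbols, and GABRB1 is not analysed here.

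The alpha subunits help form the GABA binding site with the beta subunits, and the alpha type sets much of the affinity and drug response of the receptor. The delta subunit, encoded by GABRD, replaces gamma subunits in receptors that lie outside synapses and respond to low ambient GABA. In adult cerebellar granule neurons the alpha 6 and delta subunits are classical partners in such receptors, whereas alpha 2 and alpha 3 are better known from immature neurons.

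Single nuclei were sequenced from frozen cerebellum of 4 rhesus macaque fetuses, with 1 library for each fetus. Control fetuses received no intervention and were a female and a male at 130 days of gestation. LPS fetuses were exposed to 1 mg of lipopolysaccharide (LPS), a bacterial cell wall product, injected into the amniotic fluid, and were a female at 131 days and a male at 133 days. Since the Control fetuses had no injection, the effect of LPS and that of the injection cannot be told apart, and age at sampling also differed between the groups.

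The libraries held 34282015 to 61665690 UMIs (unique molecular identifiers, each standing for 1 captured RNA molecule). Barcodes with 500 or more genes were kept as nuclei, which gave 6890 to 9250 nuclei in each library and 32565 in all, of which 22432 were of the granule lineage. Median UMIs per nucleus were 4508 in Control female, 1882 in Control male, 4063 in LPS female and 2308.5 in LPS male, so both female libraries were deeper than both male libraries. The LPS male library stood apart in that 38.7% of its UMIs lay in nuclei, against 58.7 to 73.9% in the others, and 1904 of the 2471 nuclei of a low-UMI cluster left unnamed came from it. Any 2 libraries shared 16 to 21 nuclear barcodes, against 7.91 to 11.7 if barcodes were drawn independently. Cell classes and granule stages are clusters named by marker genes, with every gene of the GABA-A family kept out of the clustering, and each name means nuclei like that cell type. Levels are in CPM, the UMIs of a gene in every 1000000 UMIs of a class or stage in a library, and are compared between groups of nuclei for 1 gene, not between genes.

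Granule neurons are born in the outer layer of the cerebellum, leave the cell cycle, migrate inward and mature there. The 6 stages were proliferating (1682 nuclei), committing (2971), migrating (4440), maturing (5276), mature by a list of markers headed by KCNIP4 (5491) and mature by a list headed by SCN2A (2200). These last stages are called the KCNIP4 and SCN2A stages, and the SCN2A stage was taken as the most mature. Of its 2200 nuclei, 1243 came from LPS male, where it made up 28.6% of staged granule nuclei, against 4.58% in Control female, 6.51% in Control male and 5.19% in LPS female.

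From the proliferating to the SCN2A stage, 3 members rose (GABRA6, GABRB2 and GABRD), 1 fell (GABRA4), and GABRA2 and GABRA3 did not pass the test. A gene was called at an adjusted p under 0.05 with a log2 difference beyond 1 in either direction (edgeR quasi-likelihood test on sums per library and stage, library as a block). All 6 members passed the filter on low counts. The filter was set over all stages together, so a member could pass through the stage where it is high. Passing it is therefore no separate support for a call. In the LPS tests within 1 stage, 4 of the 6 members passed in the proliferating stage and 5 in the SCN2A stage. Between the SCN2A and the proliferating stage 28.4% of the 12418 genes tested were called, 14.6% higher and 13.8% lower. The stages were cut from the same nuclei that are compared here, and GABRA6 is among the 10 genes that lead the SCN2A cluster, so these p-values describe the clusters and are not evidence that the clusters exist. GABRB2 is also used as a marker of mature granule neurons in the study of these libraries, and its direction here is not independent of that.

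GABRA6, the alpha subunit typical of granule neurons, stood at 4.59 CPM in Control female, 2.10 in Control male, 4.56 in LPS female and 15.7 in LPS male in the proliferating stage. In the SCN2A stage its levels were 99.9, 30.6, 53.5 and 127 CPM in the same order. Every library at the SCN2A stage lay above every library at the proliferating stage, and LPS male was the highest in both. The log2 difference was 3.99 ± 0.28 (SE, adjusted p = 6.22e-11 by the edgeR quasi-likelihood test, n = 4 libraries). GABRA6 remained at 0 to 12.2 CPM in the committing, migrating and maturing stages, and its first step up was to the KCNIP4 stage, where its levels were 13.9, 8.81, 12.4 and 52.3 CPM.

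After each nucleus was thinned to 1000 UMIs, a GABRA6 UMI was found in 10.0%, 3.27%, 3.88% and 11.1% of SCN2A nuclei in Control female, Control male, LPS female and LPS male. Without thinning these shares were 34.3%, 5.96%, 19.7% and 29.4%, at median depths of 4884, 2113, 4581 and 2828 UMIs. In microglia, which should lack this subunit, the thinned share was 0 of 42 to 81 nuclei in every library, which allows a share of up to 3.70 to 7.14%, and the unthinned share was 0 of 83, 2.63%, 1.64% and 13.3%, at median depths of 2136 to 3845 UMIs. The unthinned share in SCN2A nuclei lay above that in microglia in every library, and the thinned share of Control male and LPS female lay within what a count of 0 allows. Other classes of LPS male were not at 0. A GABRA6 UMI was found in 3.80% of 158 thinned oligodendrocytes (10.1% unthinned) and 3.23% of 31 thinned fibroblasts (6.06% unthinned).

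GABRB2, a beta subunit that can pair with alpha 6, was at 86.5, 58.1, 98.4 and 101 CPM in the proliferating stage of Control female, Control male, LPS female and LPS male. It stood at 771, 290, 552 and 568 CPM in the SCN2A stage. The lowest SCN2A value was above the highest proliferating value, and the log2 difference was 2.98 ± 0.38 (adjusted p = 6.1e-07, edgeR). The path between these ends was not a steady climb. In the maturing stage GABRB2 was at 5.56, 8.79 and 12.3 CPM in Control female, Control male and LPS female, below every other stage of those libraries. LPS male held 80.4 CPM there, close to its own 79.8 CPM in the migrating stage. Free RNA (RNA outside nuclei) was estimated from barcodes with up to 100 UMIs. Those of LPS male carried 291 CPM of GABRB2 against 49.2 to 71.8 CPM in the others. With estimated free RNA subtracted, the maturing level of LPS male was 27.7 CPM against 0 to 7.82 CPM. The part of free RNA in that level was not tested further.

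GABRD, the extrasynaptic delta subunit, was the sparsest member, with 296 UMIs in all nuclei. In the proliferating stage it was at 2.29, 2.10, 1.24 and 2.77 CPM in Control female, Control male, LPS female and LPS male. The SCN2A stage held 9.54, 4.53, 3.19 and 24.6 CPM, from 15, 4, 4 and 97 UMIs. The SCN2A values all lay above the proliferating ones, with LPS male far above the other three, and the log2 difference was 2.40 ± 0.44 (adjusted p = 6.4e-05, edgeR). The call held without LPS male, as it did without each of the other libraries. GABRD could have passed the filter through the SCN2A stage, where it is high, so its call is not independent of that.

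GABRA4, an alpha subunit found with delta in other brain regions, went the other way. Its levels were 5.57, 5.60, 15.4 and 4.62 CPM in the proliferating stage and 0.636, 0, 2.39 and 1.01 CPM in the SCN2A stage. The highest SCN2A value was below the lowest proliferating value, and LPS female was the highest library in both stages. The gene fell by 2.29 on the log2 scale, with an SE of 0.52 (adjusted p = 0.00062, edgeR), on 67 UMIs at the start and 8 at the end. It could have passed the filter through the proliferating stage, where it is highest, so its call is not independent of that.

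GABRA2, an alpha subunit common in the developing brain, formed a hump along the stages. Its mean level over the 4 libraries was 150 ± 40.5 CPM (SD, n = 4) in the proliferating stage, 329 ± 113 in the migrating stage, 329 ± 127 in the maturing stage and 95.7 ± 56.5 in the SCN2A stage. In each library the migrating and maturing levels both exceeded the proliferating and SCN2A levels. The ends of the path gave a log2 difference of -0.46 ± 0.24 (adjusted p = 0.10, edgeR), which did not pass the test.

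GABRA3, the alpha subunit shared by immature neurons and some brainstem and cerebellar cells, peaked one stage later. It was at 7.41, 8.18, 7.66 and 7.91 CPM in the migrating stage of Control female, Control male, LPS female and LPS male, and at 60.2, 67.8, 64.6 and 48.4 CPM in the KCNIP4 stage. The 4 libraries lay close together in both, and the stages did not overlap. In the SCN2A stage they spread out to 18.4, 43.0, 52.7 and 10.7 CPM. Against the proliferating stage this gave a log2 difference of 0.91 ± 0.30 (adjusted p = 0.012, edgeR), under the size required. It reached 1.32 and was called without LPS male, and was called in 4 further alternatives.

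**Figure D1:**
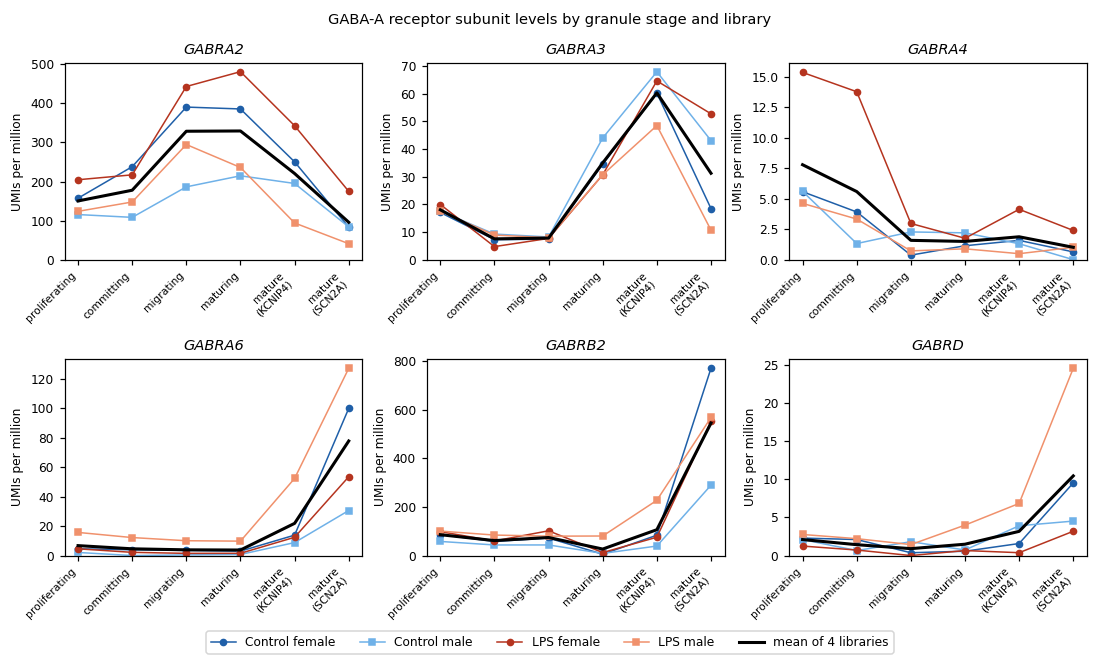
Level of each subunit in CPM (vertical axis, from 0) in the 6 granule stages from proliferating to mature (horizontal axis), with 1 coloured line for each library and the mean of the 4 in black. GABRA6, GABRB2 and GABRD are highest in the SCN2A stage, GABRA2 and GABRA3 peak before it, and GABRA4 is highest in the proliferating stage.

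Each stage was also compared with the one before it, in the same fit. From proliferating to committing, where 5.72% of genes were called, 1 of 6 members was: GABRA3 fell by 1.45 on the log2 scale (SE 0.36, adjusted p = 0.0058). From committing to migrating, where 16.1% of genes were called, GABRA2 rose (log2 1.18 ± 0.22, adjusted p = 0.00012) and GABRA4 fell by 1.68 (SE 0.42, adjusted p = 0.0023). From migrating to maturing, with 13.2% called, GABRA3 rose (log2 2.29 ± 0.27, adjusted p = 5.3e-07) and GABRB2 fell by 1.89 (SE 0.43, adjusted p = 0.0013). The fall of GABRB2 was seen in 3 of the 4 libraries, while LPS male, given above, did not show it. Without LPS male the log2 difference was -3.03, and with free RNA subtracted it was -3.21.

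From maturing to the KCNIP4 stage, with 4.90% of genes called, GABRA6 rose (log2 2.57 ± 0.29, adjusted p = 1.3e-06) and so did GABRB2 (log2 2.29 ± 0.41, adjusted p = 0.00036), whose difference was 3.06 without LPS male and 3.83 with free RNA subtracted. The difference of GABRA6 was 1.20 with finer clusters and 4.89 with free RNA subtracted, and its call was lost without the library block (2.64). From the KCNIP4 to the SCN2A stage 2.77% of genes were called, and 5 of the 6 members were among them. GABRA6 (log2 1.97 ± 0.21), GABRB2 (log2 2.54 ± 0.36) and GABRD (log2 1.87 ± 0.34) rose. GABRA2 fell by 1.31 (SE 0.23) and GABRA3 fell by 1.21 (SE 0.23). In every library GABRA6 and GABRB2 were higher, and GABRA2 and GABRA3 lower, in the SCN2A than in the KCNIP4 stage, and the adjusted p of all 5 lay between 3.3e-06 and 0.0017 (edgeR). Without the library block all 5 calls were lost, as was that of GABRB2 into the KCNIP4 stage.

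Some of these calls were lost when 1 library was left out, in each case with the same direction. The committing step of GABRA3 missed the p threshold without Control female (log2 -1.52, adjusted p = 0.054). The migrating step of GABRA4 missed it without Control female (log2 -1.36, adjusted p = 0.052) and without LPS female (log2 -1.42, adjusted p = 0.11). The last step of GABRA3 missed it without Control female (log2 -1.03, adjusted p = 0.086), and missed the size required without LPS male (log2 -0.85). The step of GABRB2 into the KCNIP4 stage was lost when clusters were cut more finely (log2 0.97). The last steps of GABRA6 (log2 3.32) and GABRB2 (log2 3.92) were larger there. In that finer clustering a cluster of 2301 nuclei that scored best on the KCNIP4 list was left without a stage. The KCNIP4 stage then held 3208 nuclei, so these steps do not compare the same nuclei.

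Other subunits of the family were measured in the same comparison of the SCN2A with the proliferating stage, and only some of those tested are described. GABRA5, an alpha subunit of mainly extrasynaptic receptors, was at 19.0, 10.5, 16.6 and 14.8 CPM in the proliferating stage and at 7.63, 3.40, 7.18 and 4.57 CPM in the SCN2A stage. The stages did not overlap, and GABRA5 fell by 1.11 on the log2 scale (SE 0.21). Of the gamma subunits, GABRG1 fell by 1.53 (SE 0.30) and GABRG3 by 1.49 (SE 0.57), the latter from no more than 11.1 CPM in any library. GABRE, GABRR1, GABRR2 and GABRR3 were below the filter, GABRP had no UMI and GABRQ is not analysed here.

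Genes that hold the receptors at synapses or move them were mixed. Of 10 such genes tested, 4 rose, 2 fell and 4 were not called, with a median of 0.65. Among all 12418 genes tested between these stages 28.4% were called, with a median of 0.04. IQSEC3, a partner of the scaffold protein gephyrin, rose (log2 2.39 ± 0.26), as did SLITRK3, an adhesion protein of inhibitory synapses (log2 2.29 ± 0.42), and PLCL1, which binds beta subunits (log2 2.24 ± 0.80). PLCL1 was higher in the SCN2A stage in 3 of the 4 libraries, at 67.4 to 192 CPM against 10.8 to 17.4 CPM in the proliferating stage. In LPS male it was lower, at 60.9 against 186 CPM. SLITRK3 was sparse, at 0 to 4.26 CPM in the proliferating stage and 3.55 to 15.8 CPM in the SCN2A stage. It was higher in the SCN2A stage in every library. In LPS male it only went from 2.77 to 3.55 CPM, so the ranges overlapped. MDGA1, which restrains inhibitory synapse formation, fell by 2.85 on the log2 scale (SE 0.24). GPHN, gephyrin itself, named here after its values were seen, rose (log2 1.21 ± 0.12).

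The response to an open GABA-A channel depends on the chloride gradient, which the exporter SLC12A5 (KCC2) lowers inside the cell and the importer SLC12A2 (NKCC1) raises. Among 9 chloride transport genes tested, 2 rose, 1 fell and 6 were not called, with a median of -0.02. This is near the share over all genes, of which 28.4% were called, with a median of 0.04. SLC12A5 was at 5.90, 9.10, 5.81 and 8.31 CPM in the proliferating stage of Control female, Control male, LPS female and LPS male. It stood at 39.4, 46.4, 40.7 and 58.8 CPM in the SCN2A stage, without overlap, a log2 difference of 3.02 ± 0.22. SLC12A2 rose as well (log2 1.36 ± 0.07), from 52.7 to 70.7 CPM over the libraries to 115 to 137 CPM. STK39, a kinase that acts on these transporters, fell by 1.68 (SE 0.32).

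Of 7 tested genes for GABA synthesis, release and uptake none was called, with a median of -0.15. Over all genes tested 28.4% were called, with a median of 0.04. Of 6 genes of the GABA-B receptor, the second and slower receptor for GABA, 3 rose and 3 were not called, with a median of 1.00. The receptor genes GABBR2 (log2 2.81 ± 0.27) and GABBR1 (log2 1.04 ± 0.12) and the auxiliary subunit KCTD8 (log2 1.60 ± 0.18) were the ones that rose.

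**Figure D2:**
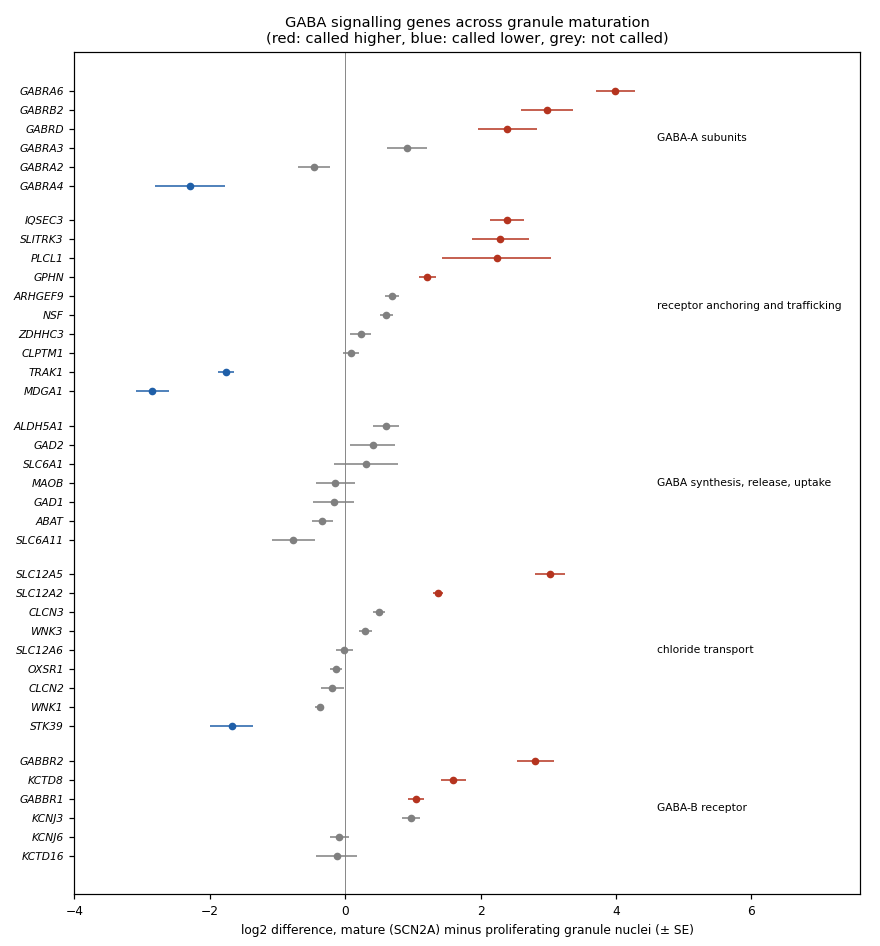
Log2 difference between the SCN2A and the proliferating granule stage (horizontal axis, ± SE) for the 6 subunits and each tested gene of 4 GABA-related lists (rows, n = 4 libraries); red was called higher, blue called lower and grey not called. GABRA6 at 3.99 lies farthest right and MDGA1 at -2.85 farthest left.

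Across the cell classes the members divided between glia, interneurons and granule neurons. GABRA2 was highest in Bergmann glia, the radial astrocytes of the cerebellar cortex, at 754, 397, 658 and 564 CPM in Control female, Control male, LPS female and LPS male. Astrocytes came next at 356, 296, 431 and 286 CPM, and their range overlapped that of Bergmann glia. Proliferating glia (251 to 448 CPM) and the granule maturing (215 to 481 CPM) and migrating (186 to 443 CPM) stages had mean levels near that of astrocytes. Their ranges overlapped that of Bergmann glia as well. PAX2+ interneurons (36.7 to 58.5 CPM), molecular layer interneurons (23.0 to 65.9 CPM) and Purkinje cells (16.3 to 46.0 CPM) were low in every library, while Golgi cells held 94.9 to 332 CPM. A GABRA2 UMI was found in 31.2 to 46.4% of Bergmann glia thinned to 1000 UMIs (49.7 to 92.1% unthinned), against 1.23 to 9.52% of microglia (8.43 to 20% unthinned).

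GABRA3 was highest in microglia, the immune cells of the brain, at 72.4, 74.9, 90.3 and 86.8 CPM, from 16 to 24 UMIs in each library. Molecular layer interneurons followed at 72.4, 75.2, 65.9 and 60.2 CPM, then Golgi cells at 47.5 to 74.8 CPM, the granule KCNIP4 stage and Purkinje cells at 43.5 to 58.5 CPM. Each of these overlapped its neighbour in the order. Bergmann glia, at 4.17 to 7.56 CPM, were low in all 4 libraries. Subtraction of estimated free RNA left 79.0 to 97.0 CPM in microglia. It could not lower these levels, since free RNA held less GABRA3, at 14.9 to 30.5 CPM. The part of free RNA in the microglial levels was not tested. The macrophage genes F13A1 and MRC1 are among the 10 genes that lead this cluster, beside the microglial gene CX3CR1. Microglia and border macrophages were not separated, so the level belongs to the cluster as a whole.

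GABRB2 was at 404, 161, 334 and 341 CPM in molecular layer interneurons and at 380, 146, 411 and 220 CPM in Purkinje cells. PAX2+ interneurons held 162, 99.6, 150 and 249 CPM. These ranges overlapped each other, and the range of the molecular layer interneurons overlapped that of the granule SCN2A stage (290 to 771 CPM). Within every library, however, the SCN2A stage lay above each of these classes. Golgi cells, at 10.1 to 31.6 CPM, were below every one of these neurons in every library.

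GABRA4 was sparse, with 464 UMIs in all nuclei. Its levels were 12.6, 19.0, 42.5 and 0 CPM in proliferating glia and 13.9, 20.2, 17.2 and 8.12 CPM in Bergmann glia. GABRA6 outside the granule lineage did not exceed 9.66 CPM in any class of 10 or more nuclei per library in Control female, Control male or LPS female. In LPS male it reached 32.6 CPM in microglia and 24.2 CPM in both fibroblasts and oligodendrocytes. That library's barcodes with up to 100 UMIs held 49.8 CPM of GABRA6. The part of free RNA in the microglial level was not tested beyond its subtraction, which left 30.3 CPM from 6 UMIs. GABRD gave 15 UMIs in molecular layer interneurons and none in Purkinje cells.

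**Figure D3:**
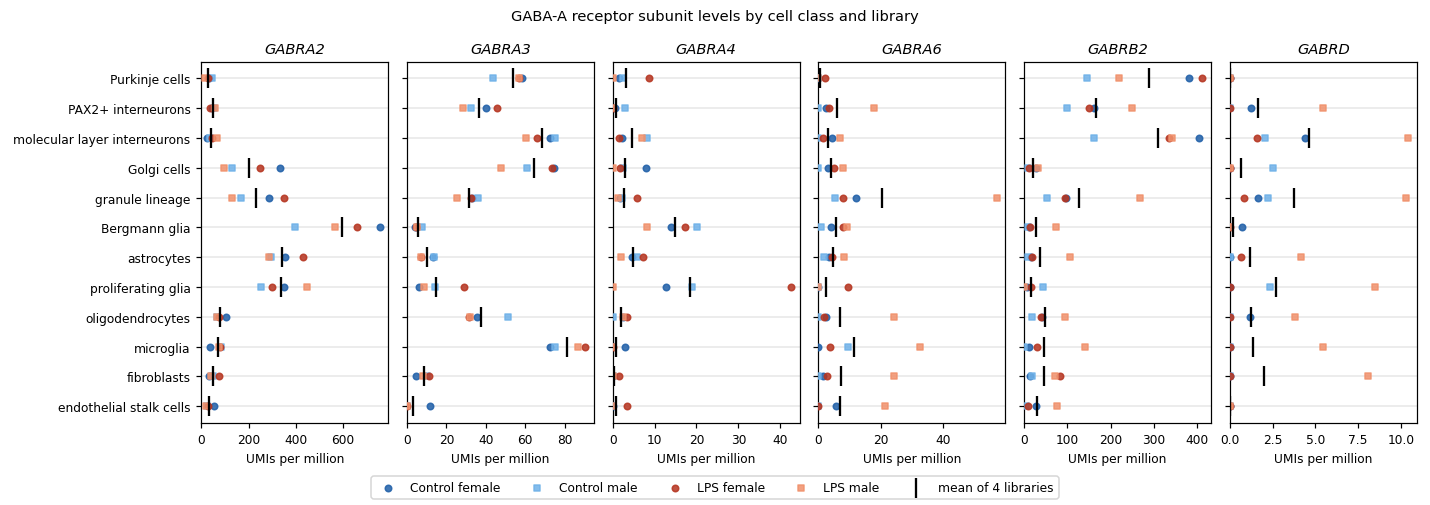
Level of each subunit in CPM (horizontal axes, from 0) in 12 cell classes (rows), with 1 point for each library and a black bar at the mean of the 4. GABRA2 is highest in Bergmann glia (mean 594), GABRA3 in microglia (mean 81.1), and GABRB2 in molecular layer interneurons (mean 310) and Purkinje cells (mean 289).

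Against the granule lineage, GABAergic interneurons (PAX2+, molecular layer and Golgi) had 2 of 5 tested members called, both lower, where 14.3% of 11195 genes were called. These were GABRA2 (log2 -1.52 ± 0.20, adjusted p = 2.4e-08) and GABRA6 (log2 -2.03 ± 0.35, adjusted p = 5.1e-06). GABRA3 had a log2 difference of 0.85 ± 0.15, under the size required, and GABRB2 of -0.08 ± 0.32. GABRD was below the filter in all class comparisons. Outside the members GABRG3, a gamma subunit, was far higher in the interneurons (log2 4.74), at 129 to 309 CPM in Golgi cells against 0.926 to 4.81 CPM in the granule lineage.

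In Bergmann glia and astrocytes against the granule lineage 24.7% of genes were called, and all 5 tested members were among them. GABRA4 was higher (log2 1.76 ± 0.31, adjusted p = 4.7e-06), and so was GABRA2 (log2 1.02 ± 0.22, adjusted p = 7.6e-05). The filter was set over all classes together, so GABRA4 could have passed it through these glia, where it is high. Its calls between classes are not independent of that. The call of GABRA2 lay at the edge of the size required and was lost in 6 of 13 alternatives, with log2 differences of 0.82 to 0.98 (0.95 without Control male and 0.82 without LPS male). GABRA3 (log2 -2.06 ± 0.18), GABRB2 (log2 -2.17 ± 0.32) and GABRA6 (log2 -1.64 ± 0.30) were lower. Other subunits were called in both directions, and 1 example is given: GABRG1 was higher in these glia and reached 178, 141, 159 and 88.7 CPM in astrocytes, against 12.9, 12.5, 29.5 and 6.48 CPM in the granule lineage.

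Molecular layer interneurons were compared with PAX2+ interneurons, the less mature cells of the same lineage, with 13.6% of genes called. Of 5 members tested, GABRB2 was higher (log2 1.05 ± 0.36, adjusted p = 0.027) and so was GABRA4 (log2 2.52 ± 0.83, adjusted p = 0.021), which rested on 13 against 4 UMIs. The call of GABRB2 was lost in 5 of 13 alternatives: without Control female (log2 0.88), without LPS female (log2 1.01), with free RNA subtracted (log2 1.18), without the library block (log2 1.02) and by DESeq2 (log2 1.17). The call of GABRA4 was lost in 3 of the 11 that gave a value: without Control female (log2 2.69), without LPS male (log2 1.82) and without the library block (log2 2.34). GABRA3 had a log2 difference of 0.97 ± 0.21 and was called in 8 of 13 alternatives. GABRG3 was higher in molecular layer interneurons (log2 1.60), at 44.99, 65.0, 93.3 and 79.8 CPM, than in PAX2+ interneurons, at 18.2, 29.7, 28.0 and 20.4 CPM, without overlap.

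The last question was whether the members differed between LPS and Control fetuses. None was called in the granule lineage, where 0% of 14898 genes were called at an adjusted p under 0.1 with a log2 difference beyond 0.25 (edgeR). At an unadjusted p under 0.05, 27 genes passed by edgeR and 60 by DESeq2, which also called 0, and no member was among the 27. With 2 fetuses in each group and wide spread between them, the depth and design could not show small differences in these genes.

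In the granule lineage GABRB2 was at 95.9 CPM in Control female, 53.7 in Control male, 94.95 in LPS female and 267 in LPS male. GABRA6 was at 11.9, 5.20, 7.95 and 57.1 CPM and GABRD at 1.66, 2.23, 0.809 and 10.3 CPM in the same order. In all 3 the LPS female library lay within or below the Control libraries and LPS male far above them. The log2 differences, LPS minus Control, were 1.25 ± 0.63 for GABRB2 (unadjusted p = 0.11), 1.89 ± 1.03 for GABRA6 (unadjusted p = 0.13) and 1.52 ± 1.19 for GABRD (unadjusted p = 0.26) by edgeR, each with an adjusted p of 1.00. Without LPS male they were 0.33, -0.14 and -1.24.

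LPS male also held the larger share of SCN2A nuclei. With finer clusters (resolution 1.0), 1 of the clusters named by the SCN2A list held 566 nuclei, of which 554 came from LPS male and 4, 6 and 2 from Control female, Control male and LPS female. The values within the SCN2A stage compare the stage as clustered, and the part of those nuclei in them was not tested. Within the SCN2A stage GABRB2 had a log2 difference of 0.04 ± 0.57, GABRA6 of 0.39 ± 0.70 and GABRD of 0.93 ± 0.97, with 0% of 9668 genes called. In the KCNIP4 stage the differences of GABRB2 (1.20 ± 0.66, unadjusted p = 0.12, edgeR) and GABRA6 (1.40 ± 0.72, unadjusted p = 0.11, edgeR) were larger and not called, and that of GABRD was 0.39 ± 1.26. There GABRB2 was at 83.8, 39.1, 75.4 and 227 CPM and GABRA6 at the levels given above for that stage, with LPS male the highest for both. When every library was given the same weights for the 6 stages, a value without a test, the differences over the lineage, as log2 ratios of mean CPM + 1, were 0.57 for GABRB2, 0.93 for GABRA6 and 0.48 for GABRD. On log2 ratios of CPM + 1 as well, the 3 differences within females were -0.01, -0.53 and -0.56, and within males 2.29, 3.23 and 1.80. The added 1 CPM makes these smaller for a sparse gene such as GABRD, so they are not on the scale of the edgeR differences.

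GABRA2 was at 286, 169, 351 and 128 CPM in the granule lineage, with a log2 difference of 0.05 ± 0.60. Both female libraries lay above both male libraries, as for 30.6% of genes, and 37.7% had both male libraries above both female ones, as GABRD did. Sex and depth cannot be told apart in this split. GABRA3 was at 33.2, 35.8, 32.3 and 25.3 CPM, with both LPS libraries below both Control libraries, as for 5.00% of genes, and its log2 difference was -0.26 ± 0.30 (unadjusted p = 0.44). GABRA4 was at 1.85, 2.14, 5.85 and 1.24 CPM (log2 0.84 ± 0.86), with its highest and its lowest level in the LPS libraries. Without LPS female the difference of GABRA4 was -0.68 and that of GABRA2 was -0.85. Both LPS libraries lay above both Control libraries for 7.13% of genes and for no member.

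The remaining classes and stages gave no call for any member that passed the filter, with 0% of genes called in each of 17 comparisons. Of the 6 members, 0 passed in endothelial stalk cells, 1 in proliferating glia, 2 in fibroblasts and 2 in microglia. In the other classes and stages 3 to 5 passed, so many members were not tested there. GABRB2 reached an unadjusted p under 0.05 by edgeR in the maturing stage (log2 2.66 ± 0.89, unadjusted p = 0.029), Bergmann glia (log2 2.05 ± 0.77, unadjusted p = 0.034), astrocytes (log2 2.19 ± 0.83, unadjusted p = 0.038) and fibroblasts (log2 2.27 ± 0.49, unadjusted p = 0.0016). These were picked by p from all the member tests. Of all genes, 30 of 11446, 35 of 10288, 36 of 10467 and 148 of 8625 reached that level in the same groups, in this order. In the maturing stage, Bergmann glia and astrocytes LPS male was the highest library, at 80.4, 74.1 and 106 CPM against 5.56 to 19.4 CPM in the others. Its free RNA was also rich in GABRB2, as given above, and with that subtracted its Bergmann glia held 9.19 CPM, within the 0.407 to 9.72 CPM of the other libraries. Astrocytes of LPS male held 37.1 CPM after subtraction, against 0 to 13.6 CPM. The part of free RNA in these differences was not tested beyond that subtraction. In fibroblasts LPS female (83.4 CPM) was also above the Control libraries (12.6 and 19.3 CPM), from 8 to 59 UMIs in each library. LPS male gave only 33 fibroblast nuclei. The share of free RNA estimated for them was 0%, so subtraction could not lower their GABRB2 level. A test of whether the LPS difference itself changed between the SCN2A and the proliferating stage called 0% of 12963 genes, and GABRA6 had the smallest p of the members (log2 -1.09 ± 0.62, unadjusted p = 0.099).

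**Figure D4:**
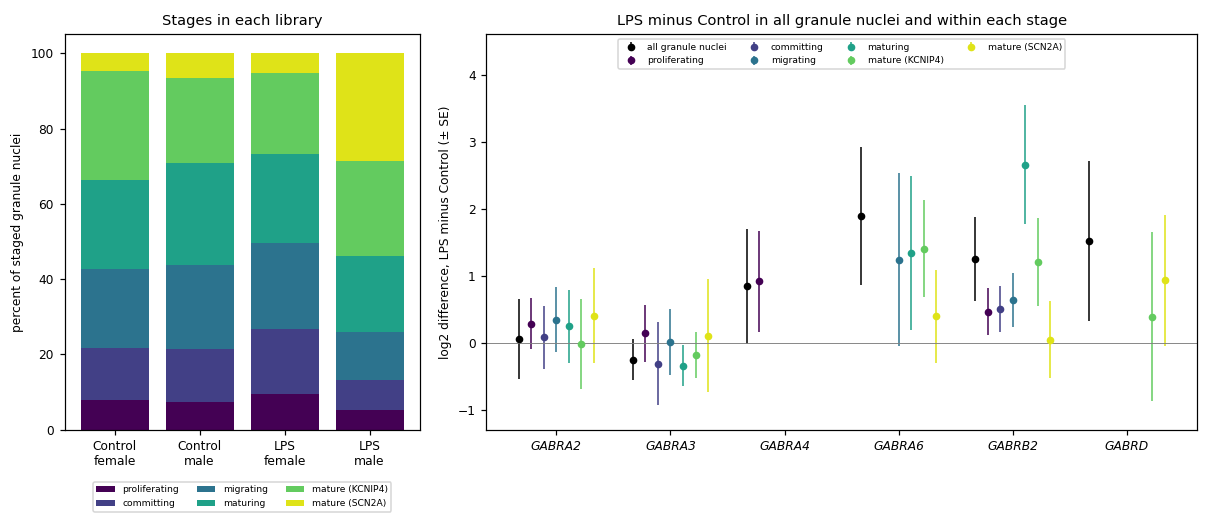
Left, the percent of staged granule nuclei in each of the 6 stages in each library; right, the log2 difference LPS minus Control (± SE, n = 2 against 2 libraries) of each subunit in all granule nuclei (black) and within each stage where it passed the filter. LPS male holds 28.6% of its staged nuclei in the SCN2A stage. GABRB2 is at 1.25 over all granule nuclei and at 0.04 within that stage. Its difference is larger within the KCNIP4 and maturing stages than within the SCN2A stage.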

How the data were processed

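The authors isolated nuclei from frozen cerebellum, made 10x 3' v3.1 libraries and deposited unfiltered UMI counts per gene and barcode, mapped to Mmul_8.0.1 with introns included. The file header and the submitters' processing notes name Cell Ranger 4, while the protocol names a later version. Free RNA had not been removed from the deposited counts.

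From these counts, nuclei were taken as barcodes with 500 or more genes and no more than 5% of UMIs from mitochondria, clustered in Seurat 5.3.0 (2000 variable features without GABA-A genes, 30 dimensions, resolution 0.5) and named where at least 3 markers were raised. Granule nuclei were clustered again into stages. Doublets were called by Scrublet; a cluster of 678 nuclei with over 50% doublets (75.5%) was left unnamed, and removal of all called doublets was an alternative. In LPS male the doublet threshold was replaced by the median of the other libraries. UMIs were summed per library and class or stage and tested with edgeR 4.0.16 (R 4.3.3; TMM, quasi-likelihood test, Benjamini-Hochberg over all genes; condition alone for LPS, library as a block between stages and classes). SE is the log2 difference over the root of F. LPS calls needed an adjusted p under 0.1 and a log2 difference beyond 0.25, after the study's thresholds. The study applied its thresholds to single nuclei, not to sums per fetus, so its calls and those here are not from the same test. Groups needed 10 nuclei in every library. Free RNA was estimated from barcodes with up to 100 UMIs. The test code was tested on simulated data.

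Members are always named; of the lists, every other subunit (some are not reported here) and up to 4 called genes each by size of change in the SCN2A against the proliferating stage; and the 3 genes most like each member over classes and stages (at least 20 CPM). Members and lists were chosen with earlier results of these data known, and several marker lists draw on the study's own tables from these libraries. DESeq2 1.42.0 was an alternative. Intervals and floors of counts cover counting error only.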

Additional observations from a re-analysis of the deposited data

How the results depend on the processing

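The counts of called genes kept their side and stayed within 1.5 times of the reported ones in all 132 recomputed values: none was called for LPS in any setting, and 1557 to 1978 genes rose and 1514 to 1990 fell from the proliferating to the SCN2A stage. Of the member results, 698 were unchanged in call, 31 lost it, 14 gained it and 7 moved; none reversed after a call. The calls of GABRA6, GABRB2, GABRD and GABRA4 between the SCN2A and proliferating stages held in every setting that gave a value; GABRD had none with the finer clustering. Without the library block, calls between adjacent stages were lost for every member step except those of GABRA3 into the committing and maturing stages; the cause was not tested. With the GABA-A genes allowed in the clustering, the migrating step of GABRA2 was 0.88 and no longer called, and GABRD gained a maturing step (2.87). In that clustering 2021 nuclei that scored best on the migrating list were left without a stage. DESeq2 did not call GABRB2 between molecular layer and PAX2+ interneurons (1.17). For LPS in the granule lineage, leaving out 1 library gave ranges of 0.33 to 1.84 for GABRB2, -0.14 to 2.73 for GABRA6, -1.24 to 2.41 for GABRD, -0.85 to 0.61 for GABRA2, -0.68 to 1.55 for GABRA4 and -0.45 to -0.09 for GABRA3. With sex as a block the difference of GABRB2 was 1.15 and that of GABRA6 was 1.38, with no call (269 genes at an unadjusted p under 0.05). Counting the low-UMI cluster as granule lineage, and the same stage weights or single-sex values, were chosen after seeing the data. The labels give no replicate numbers, so sex is the only pairing they allow. A few UMIs per library limit GABRD and GABRA4.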

Other observations

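Over 20 cell classes and granule stages, the genes whose mean level on the log2(CPM + 1) scale followed each member most closely were found among 11537 genes. The points share libraries, and those with few nuclei are imprecise, so the values are descriptions. For GABRA2 they were DPYSL3 (Pearson r = 0.89), DSC3 (0.86) and TAFA5 (0.86). For GABRA3 they were MDH1 (0.89), WDR7 (0.89) and BOLA3 (0.88). GABRA4 was followed by SCRIB (0.85), XKR5 (0.78) and LPCAT4 (0.76), and GABRA6 by TMOD1 (0.83), RAB37 (0.83) and CMTM7 (0.78). GABRB2 was followed by MTCL1 (0.79), EPB41 (0.76) and ASIC2 (0.76), and GABRD by CNKSR1 (0.82), DOK7 (0.81) and NEGR1 (0.81). ASIC2 is one of the markers that named the SCN2A stage, and RAB37 leads its cluster.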
